A study of Homo sapiens with 12 samples.

Results

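The miR-26 family consists of MIR26A1, MIR26A2 and MIR26B, 3 precursors that lie in introns of the genes for the small CTD phosphatases CTDSPL, CTDSP2 and CTDSP1. The members were chosen by gene name, with earlier results of these data known, and are 3 of the 1881 miRNA precursor rows measured. Small RNA was sequenced from A375, a melanoma cell line that carries the BRAF V600E mutation and is sensitive to the BRAF inhibitor dabrafenib, and from its resistant derivative A375-BIR. Each line was analysed in 0.1% DMSO and in 200 nM dabrafenib for 48 h, with 3 libraries for each of the 4 groups, described in the labels as biological replicates. A375-BIR was selected, per the paper's methods, by growth in rising doses of dabrafenib over 4 weeks, and with 1 parental line and 1 derivative a difference between the lines joins the resistance, its selection and any drift of a single derived population, and these cannot be told apart.

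The miR-26 miRNAs share the seed through which a miRNA pairs with its targets, and they are described as being made together with the phosphatase mRNAs whose introns hold them. The CTDSP phosphatases act on the retinoblastoma protein, and miR-26 acts on the histone methyltransferase EZH2 and on G1 cyclins and CDK6, so the host genes and their miRNAs are described as restraining the passage from G1 into S phase. In melanoma cells BRAF inhibition arrests the cycle in G1, the stage that these miRNAs are known for.

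MIR26A1 lies on chromosome 3 at 37969404 to 37969480 (hg38, plus strand), in intron 5 of CTDSPL. MIR26A2 lies on chromosome 12 at 57824609 to 57824692 (minus strand), in intron 5 of CTDSP2. MIR26B lies on chromosome 2 at 218402646 to 218402722 (plus strand), in intron 4 of CTDSP1. These intron numbers are those of the reference transcript of each host (MANE Select), and they differ in some other transcripts. The precursors were intronic in 6 of 6, 6 of 6 and 15 of 15 annotated host transcripts that span them, and each has the strand of its host.

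The mature sequences below (RefSeq, GRCh38.p14) show what the counts can and cannot separate, with the seed, bases 2 to 8, in capitals. MIR26A1 and MIR26A2 give the same miR-26a-5p.
miR-26a-5p: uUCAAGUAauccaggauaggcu
miR-26b-5p: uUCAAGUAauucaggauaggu
miR-26a-1-3p: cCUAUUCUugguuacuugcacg
miR-26a-2-3p: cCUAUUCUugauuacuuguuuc
miR-26b-3p: cCUGUUCUccauuacuuggcu
miR-1297: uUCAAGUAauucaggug
miR-4465: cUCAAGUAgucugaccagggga

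Counted from the 5′ end, miR-26a-5p and miR-26b-5p differ by C11U and C21U, outside the seed, and they are 22 and 21 bases long. The opposite strands of the miR-26a copies differ by G11A, C19U, A20U, C21U and G22C. miR-1297 and miR-4465 are shown because they have the same seed. Their precursors MIR1297 and MIR4465 had 0 counts in all 12 libraries, where a floor of 3 counts corresponds to 24.4 to 85.5 CPM (counts scaled to a common library total). The counts are per precursor and do not separate its 5p and 3p arms, so no count of the seed itself was measured.

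The hairpins (RefSeq, GRCh38.p14), with the 5p arm in capitals, show that the copies are alike within the mature arm and differ in the loop and flanks.
MIR26A1: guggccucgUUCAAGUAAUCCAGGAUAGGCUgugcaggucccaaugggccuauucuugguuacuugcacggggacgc
MIR26A2: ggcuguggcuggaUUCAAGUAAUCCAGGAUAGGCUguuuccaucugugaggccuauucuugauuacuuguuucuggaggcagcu
MIR26B: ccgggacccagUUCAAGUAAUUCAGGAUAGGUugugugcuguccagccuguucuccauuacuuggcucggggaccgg

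The longest run of bases shared by MIR26A1 and MIR26A2 was 24, which spans all of miR-26a-5p. It was 11 between MIR26A1 and MIR26B and 10 between MIR26A2 and MIR26B.

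The libraries were shallow. Their total expected counts were 77264, 121802 and 86898 in A375 in DMSO, 47507, 51532 and 36955 in A375 in dabrafenib, 106427, 120625 and 122792 in A375-BIR in DMSO, and 35070, 59899 and 47607 in A375-BIR in dabrafenib. The dabrafenib libraries were thus smaller than the DMSO libraries in both lines. An rRNA-like set, 17 rows with a stretch of 18 or more bases found in 45S pre-rRNA, made up 2.65% to 5.59% of each DMSO library and 14.38% to 26.3% of each dabrafenib library. No miR-26 row is among the 17. Fits without them are given beside the dabrafenib results, and what raised their share was not tested. By chi-square per degree of freedom between replicates, 1 library stood apart, A375-BIR in DMSO replicate 3. It had 29.4 and 32.1 to replicates 1 and 2, against 2.5 between those replicates. This measure grows with depth, and these libraries were among the deepest. The next highest values were 14.2 between A375-BIR in dabrafenib replicates 1 and 3 and 13.6 between A375 in DMSO replicates 2 and 3. The lowest correlation between replicates, 0.924, was between A375-BIR in dabrafenib replicates 1 and 3. A375-BIR in DMSO replicate 3 had 0.968 and 0.97 with replicates 1 and 2. Fits that compare its group, the group means and the ratio differences are given with and without it. The exact tests between the lines over both treatments and the likeness values are given only with it.

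Markers of the melanocyte lineage were detected in A375, mainly as MIR204 and MIR509, and were low in A375-BIR. MIR204 had 1265 counts over all 12 libraries. MIR509-1, MIR509-2 and MIR509-3 had nearly equal counts, 196.66, 196.66 and 205.66. MIR508 had 53, MIR211 44 and MIR513C 15 counts, and the other markers at most 1.5. Of 17 melanocyte and melanoma markers 6 were at 0 in all libraries (MIR507, MIR510, MIR514A1, MIR514A2, MIR514A3 and MIR514B), and MIR204 was the most abundant. Their summed level, in CPM of total counts, was 3222 to 3468 in A375 in DMSO and 5439 to 7432 in A375 in dabrafenib, against 199.0 to 227.9 and 350.8 to 735.2 in A375-BIR in the same treatments. The summed counts of 5 epithelial, 4 blood, 1 endothelial, 5 muscle and 1 liver markers were at most 4, 17.5, 9, 6 and 0 in any library, with MIR429, MIR451A and MIR122 at 0 throughout. The fibroblast and smooth muscle markers MIR143 and MIR145, mostly MIR143, summed to 155.3 to 667.4 CPM (DMSO) and 324.7 to 543.4 CPM (dabrafenib) in A375, and to 249 to 257 CPM (DMSO) and 627.3 to 1113 CPM (dabrafenib) in A375-BIR. In all 6 A375-BIR libraries this was above the sum of the 17 melanocyte markers (22 to 53 against 20 to 35 counts). In bulk RNA, a change in the cells present and a change in RNA per cell cannot be told apart.

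MIR26A1 had 93.5, 139.5 and 119 expected counts in A375 in DMSO and 35.5, 35.5 and 33 in A375 in dabrafenib. In A375-BIR it had 155, 139 and 286.33 in DMSO and 51, 106 and 58 in dabrafenib. MIR26A2 differed from MIR26A1 by at most 5 counts in any library, and MIR26A1 held 49.21% to 50.0% of their sum. RSEM, the counting program, divides a read that fits several precursors among them, so both rows carry what is nearly 1 measurement of miR-26a, and their separate test results do not support each other. The share of reads made from each locus could not be read from these counts.

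MIR26B, the precursor with its own mature 5p sequence, was sparser. It had 34, 53 and 73 expected counts in A375 in DMSO, 15, 14 and 13 in A375 in dabrafenib, 56, 85 and 55 in A375-BIR in DMSO, and 22, 50 and 32 in A375-BIR in dabrafenib. The exact 95% Poisson interval of the lowest of these counts ran from 6.92 to 22.2 and that of the highest from 67.9 to 105.1. These intervals cover counting error only.

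The family took 0.273% to 0.359% of all counts in A375 in DMSO, 0.301% to 0.512% in A375-BIR in DMSO and 0.311% to 0.437% in A375-BIR in dabrafenib. In A375 in dabrafenib it took 0.183%, 0.165% and 0.214%, below the 9 other libraries. Such a separation was common by total counts. Of all tested precursors, 38.9% were lower in A375 in dabrafenib than in every A375 DMSO library, and 36.6% lower than in every A375-BIR dabrafenib library. The family's share of all counts also falls where other rows take more of the library, and A375 in dabrafenib had the highest share of counts in rRNA-like rows, 20.88% to 26.3%. The levels that follow are therefore CPM scaled by TMM, which aims to set the bulk of precursors level and left medians of all tested precursors between -0.16 and 0.17 in the comparisons below.

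MIR26A1 stood at 1125, 1063 and 1251 CPM in A375 in DMSO and at 939, 1016 and 1097 CPM in A375 in dabrafenib. In A375-BIR it stood at 1404, 1090 and 1978 CPM in DMSO and at 1393, 1594 and 1173 CPM in dabrafenib. The A375 libraries were close to each other in both treatments, and the spread was widest in A375-BIR in DMSO, where replicate 3 was highest. In dabrafenib every A375 library was below every A375-BIR library, as for 25.7% of all tested precursors (50.3% separated in either direction). In DMSO the lines overlapped.

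For both copies together the group means were, from high to low, 3001 ± 904 CPM in A375-BIR in DMSO, 2783 ± 422 in A375-BIR in dabrafenib, 2293 ± 199 in A375 in DMSO and 2025 ± 159 in A375 in dabrafenib (SD, n = 3). The ranges of each group and the next in this order overlapped. Without replicate 3, A375-BIR in DMSO averaged 2517 CPM (n = 2) and fell to second place. Over the 12 libraries the miR-26a sum averaged 2525 ± 596 CPM (SD), rank 42 of 174 rows when the copies count as 1. Copies of other miRNAs, such as let-7a, stayed separate rows. This rank and that of MIR26B below rest on means over all 4 groups. MIR10B at 2640 and MIR1248 at 2592 CPM stood next above, MIR10A at 2136 and MIR1307 at 2098 CPM next below, all within the spread of the miR-26a sum. No level was scaled for length, and the lengths of the ranked rows were not compared.

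MIR26B stood at 407, 402 and 768 CPM in A375 in DMSO and at 391, 395 and 432 CPM in A375 in dabrafenib. In A375-BIR it stood at 507, 667 and 380 CPM in DMSO and at 601, 752 and 647 CPM in dabrafenib. Replicate 3 of A375 in DMSO was the highest of all 12 libraries, while the other A375 libraries lay between 391 and 432 CPM. From high to low, the means were 667 ± 77.5 CPM in A375-BIR in dabrafenib, 526 ± 209 in A375 in DMSO, 518 ± 143 in A375-BIR in DMSO and 406 ± 22.6 in A375 in dabrafenib (SD, n = 3), and neighbours in this order overlapped. Without replicate 3, A375-BIR in DMSO averaged 587 CPM (n = 2), above A375 in DMSO. Over the 12 libraries MIR26B averaged 529 ± 149 CPM (SD), rank 85 of 174, between MIR23A (571 CPM) and MIR148B (555 CPM) above and MIR425 (529 CPM) and MIR760 (528 CPM) below.

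**Figure D1:**
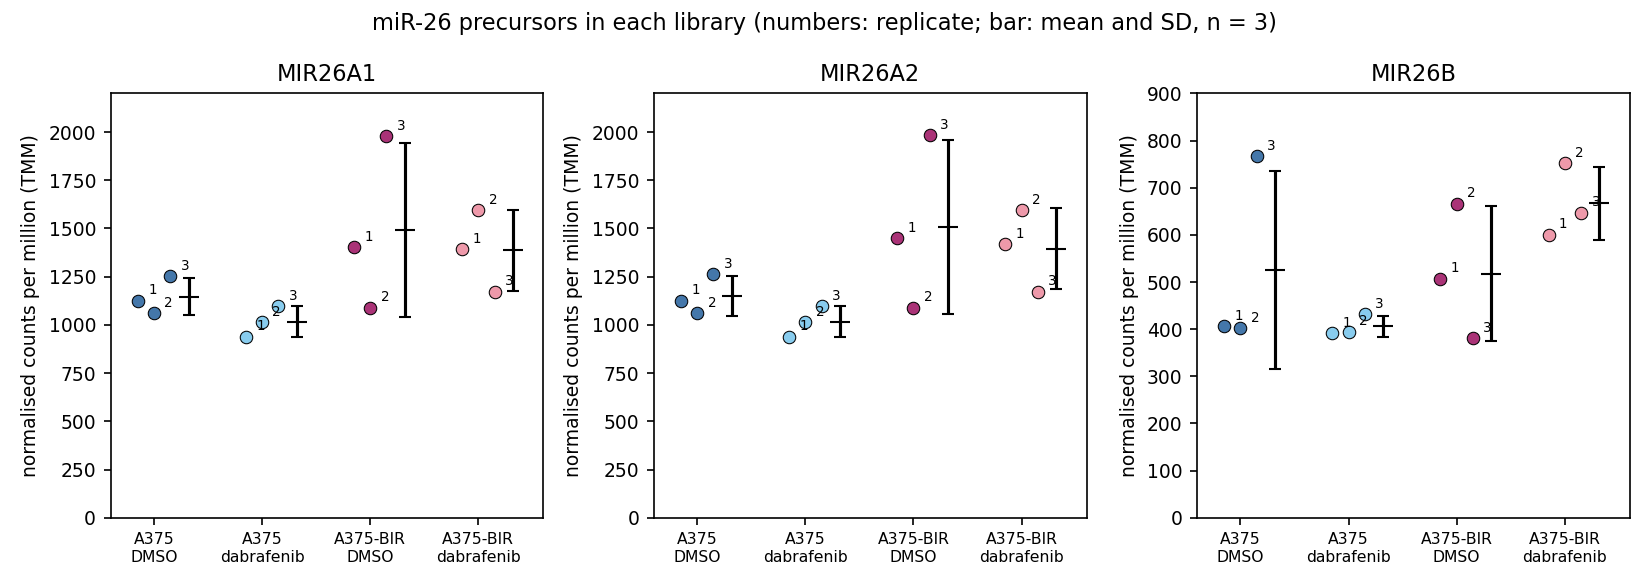
Normalised CPM (TMM, y axis) of MIR26A1, MIR26A2 and MIR26B in each of the 12 libraries by line and treatment (x axis), with the replicate number beside each point and the mean and SD of 3 libraries as a bar. The panels of MIR26A1 and MIR26A2 repeat nearly the same reads, and in dabrafenib all A375 points lie below all A375-BIR points in each panel.

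miR-26a was lower in A375 than in A375-BIR over both treatments, by a modest amount that lay close to the threshold. The log2 fold change of A375 over A375-BIR was -0.37 for the sum of both copies (SE 0.136, 95% interval -0.67 to -0.08, adjusted p = 0.0311 in edgeR's quasi-likelihood test), a fold of 0.772. For MIR26A1 it was -0.42 (SE 0.161, adjusted p = 0.0362) and for MIR26A2 -0.43 (SE 0.161, adjusted p = 0.0334). All 6 A375 libraries were below the A375-BIR mean of their treatment for the sum and each copy, a count not made for other precursors. It leaned on A375-BIR in DMSO replicate 3. Without that library, A375 in DMSO replicate 3 was above the A375-BIR mean for MIR26A1 (1251 against 1247 CPM). For the sum it was barely below (2513 against 2517 CPM). For MIR26B the log2 fold change was -0.36 (SE 0.210, 95% interval -0.81 to 0.09, adjusted p = 0.167), with 5 of 6 A375 libraries below the A375-BIR mean, and it did not pass. In this comparison 60% of the 175 tested precursors passed the threshold (105, of which 45 were higher and 60 lower in A375), so a call was the usual outcome here and does not set miR-26a apart. Of the 175 tested precursors, in the fit with the copies apart, 41.7% had a lower log2 fold change than the miR-26a sum. In that same fit 40% were lower than MIR26A2. Both thus lay near the middle.

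This call depended on single libraries and on the scaling. Without A375-BIR in DMSO replicate 3, the log2 fold change of the sum was -0.28 (adjusted p = 0.0643). It also missed the threshold without A375-BIR in dabrafenib replicate 2 (-0.33, adjusted p = 0.0824), without A375 in DMSO replicate 1 (-0.35, adjusted p = 0.0637) and without A375 in DMSO replicate 2 (-0.37, adjusted p = 0.0615). MIR26A1 missed it in these 4 fits (-0.27, -0.36, -0.41 and -0.39) and also without A375-BIR in dabrafenib replicate 1 (-0.42) or without A375 in dabrafenib replicate 1 (-0.42) or 2 (-0.42), and MIR26A2 in 6 of these 7, passing without A375 in dabrafenib replicate 1. MIR26B passed in 1 fit, without A375 in DMSO replicate 3 (-0.54, adjusted p = 0.0222 in edgeR). In a fit blocked by replicate number the sum (-0.37, adjusted p = 0.0319 in edgeR) and MIR26A2 (-0.43, adjusted p = 0.0457) were still called, and MIR26A1 (-0.41, adjusted p = 0.0508) and MIR26B (-0.35, adjusted p = 0.203) were not.

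The value for the sum lies outside those of its copies because TMM takes 1 library as its reference. edgeR took A375-BIR in DMSO replicate 1 for the table as deposited and A375 in DMSO replicate 3 once the copies were summed, which moved the scaling factors by up to 0.132. With the factors of the deposited table the sum gave -0.43. With each of the 12 libraries as reference in turn, an alternative chosen after seeing the data, the sum lay between -0.52 and -0.30 and passed in 10 of 12 fits, and MIR26B lay between -0.46 and -0.24 and passed in 0 of 12. With DESeq2's size factors the sum was -0.31 (adjusted p = 0.0632 in edgeR) and in DESeq2's own Wald test -0.31 (adjusted p = 0.0996). By total counts alone it was -0.68 and MIR26B -0.59, both past the threshold.

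Much of that range was a shift of all precursors together. The median log2 fold change of all tested precursors was -0.11 with TMM, -0.00 with DESeq2's size factors and -0.34 with total counts, and the calls split into 45 higher and 60 lower, 54 and 50, and 35 and 72. Measured from that median, the sum lay between -0.34 and -0.27 under 16 scalings and MIR26B between -0.26 and -0.19. A scaling moves all precursors nearly alike, so the narrowness of these ranges follows from how they are computed and adds no support. The distance from the median was not tested, and how many precursors count as changed depended on where the typical precursor was set.

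**Figure D2:**
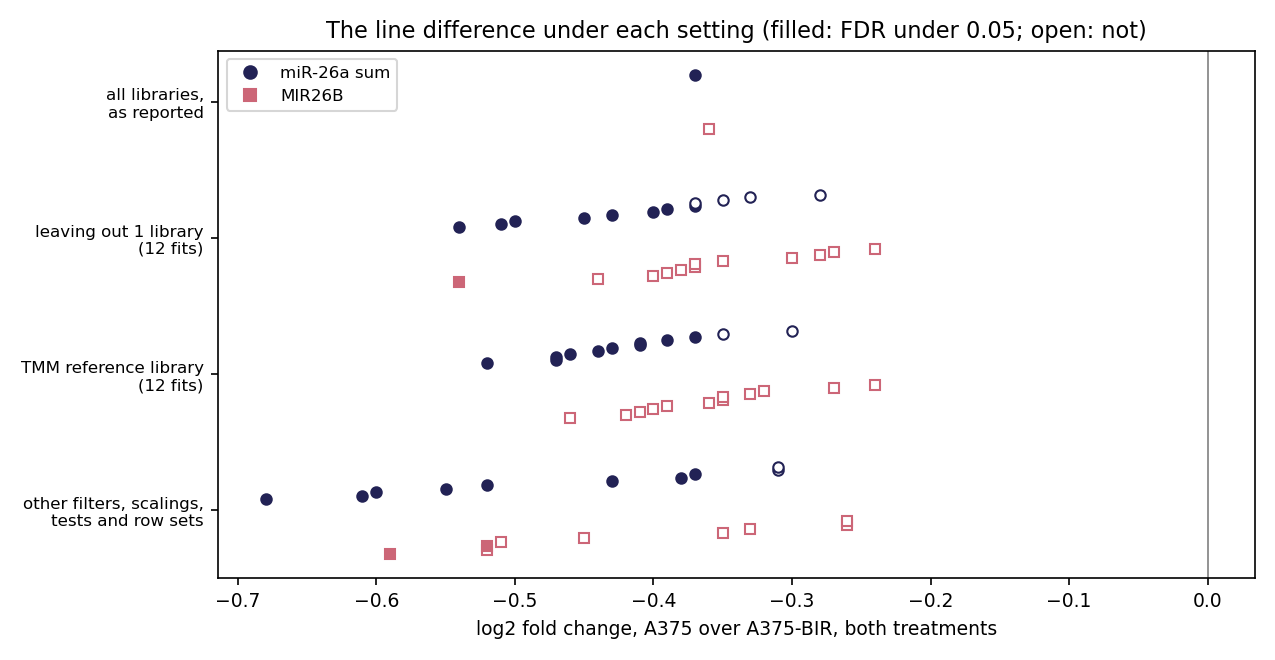
Log2 fold change of A375 over A375-BIR over both treatments (x axis) for the miR-26a sum (circles) and MIR26B (squares) with all libraries, leaving out each library, with each library as TMM reference, and under the other settings (y axis); filled symbols have an adjusted p under 0.05. All symbols lie below 0, and the circles are a mix of filled and open, with 8 of 12 filled when a library was left out.

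With the line labels exchanged inside each treatment, an exact permutation test gave p = 0.02 for the miR-26a sum (log2 difference -0.40, two-sided, 400 arrangements, smallest possible p 0.005). The exact p was 0.02 for MIR26A1, 0.025 for MIR26A2 and 0.145 for MIR26B. These are unadjusted values among 20 such tests of the family, and the members were chosen with earlier results known. The tests were not repeated without A375-BIR in DMSO replicate 3.

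In DMSO alone no member passed the threshold between the lines. The log2 fold change of A375 over A375-BIR was -0.29 for the miR-26a sum (95% interval -0.70 to 0.11, adjusted p = 0.210 in edgeR), -0.38 for MIR26A1 (95% interval -0.84 to 0.08) and -0.39 for MIR26A2 (95% interval -0.85 to 0.07). For MIR26B it was 0.02 (95% interval -0.55 to 0.58, adjusted p = 0.968 in edgeR), and its sign turned under several settings. With each library as TMM reference, the sum lay between -0.40 and -0.12 and MIR26B between 0.01 and 0.28. For the sum, DESeq2's size factors gave -0.21 and no filter -0.48. None of these fits passed. Measured from the median of all precursors, the sum lay between -0.26 and -0.19 and MIR26B on the other side, between 0.17 and 0.23, under 16 scalings. Between libraries of equal replicate number, which deviated together in this comparison, A375 was lower in 3 of 3 pairs for the sum and in 2 of 3 for MIR26B. With the number as a block the values were -0.28 for the sum (adjusted p = 0.234 in edgeR) and 0.01 for MIR26B (adjusted p = 0.984). Of all tested precursors 46.3% passed in this comparison (28 higher and 53 lower, 38 and 43 with DESeq2's size factors), and none of the miR-26 rows. Without A375-BIR in DMSO replicate 3 the value was -0.11 for the sum and -0.15 for MIR26B, and neither passed. Without A375-BIR in DMSO replicate 2, whose miR-26a was the lowest of its group, MIR26A1 (-0.56) and MIR26A2 (-0.58) passed and the sum (-0.46) did not. Without A375 in DMSO replicate 3 the value of MIR26B was -0.35.

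In dabrafenib no member passed the threshold between the lines. The log2 fold change of A375 over A375-BIR was -0.45 for the miR-26a sum (SE 0.199, 95% interval -0.88 to -0.02, adjusted p = 0.0818) and -0.73 for MIR26B (SE 0.325, 95% interval -1.43 to -0.03, adjusted p = 0.0817 in edgeR). These 95% intervals excluded 0 and the adjusted p-values missed the threshold. For MIR26A1 it was -0.45 (95% interval -0.97 to 0.06, adjusted p = 0.142 in edgeR) and for MIR26A2 -0.46 (95% interval -0.98 to 0.05, adjusted p = 0.136), with intervals that include 0. All 3 A375 libraries were below all 3 A375-BIR libraries for each member, as for 45 of 175 tested precursors. Of these 175, 46.3% were called in this comparison. The exact test of 3 against 3 gave p = 0.1, the smallest it can give. All members were below 0 under every scaling.

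Several settings moved these values past the threshold. By total counts alone they were -0.94 for the sum and -1.21 for MIR26B (adjusted p = 0.00871 and 0.00785 in edgeR), and the calls over all precursors went from 42 higher and 39 lower to 24 and 59. In a fit of the 6 dabrafenib libraries alone they were -0.65 and -0.92 (adjusted p = 0.0205 and 0.0138 in edgeR). Without the 17 rRNA-like rows, chosen as an alternative after seeing the data, they were -0.63 and -0.90 (adjusted p = 0.0374 and 0.0352 in edgeR). Without A375-BIR in DMSO replicate 3 the sum passed with -0.45, and without A375 in DMSO replicate 3 both passed, with -0.65 for the sum and -0.73 for MIR26B, although neither library belongs to the comparison. With each library as TMM reference, the sum and MIR26B each passed in 5 of 12 fits. Measured from the median of all precursors, the sum lay between -0.44 and -0.41 and MIR26B between -0.71 and -0.68 under 16 scalings.

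**Figure D3:**
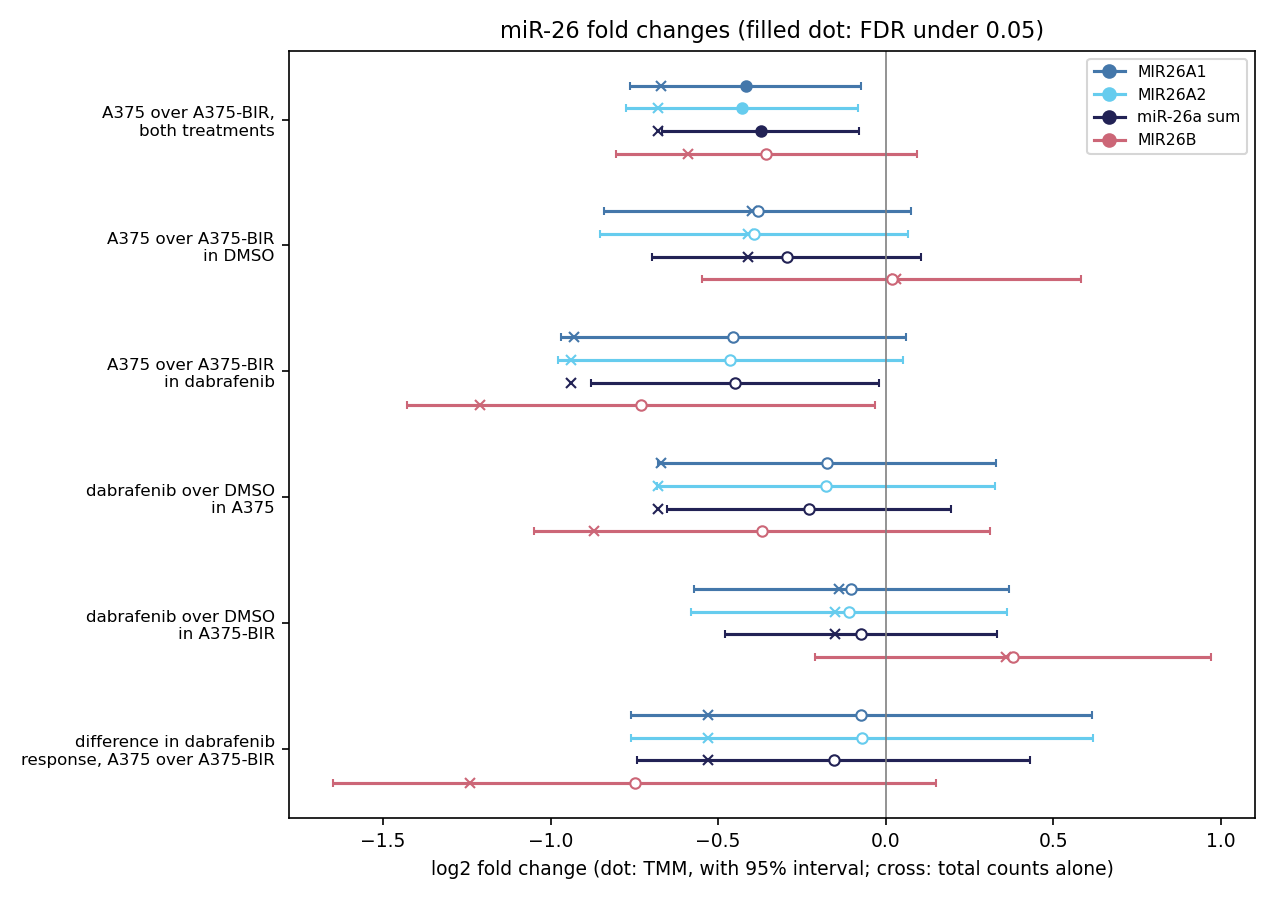
Log2 fold changes (x axis) of MIR26A1, MIR26A2, the miR-26a sum and MIR26B in the 6 comparisons (y axis), as dots with 95% intervals under TMM, filled where the adjusted p is under 0.05, and as crosses under total counts alone. The filled dots are those of miR-26a between the lines over both treatments (-0.42, -0.43 and -0.37), and the crosses lie far to the left of the dots where A375 in dabrafenib enters.

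Dabrafenib did not change a miR-26 member past the threshold in A375. The log2 fold change of dabrafenib over DMSO was -0.23 for the miR-26a sum (95% interval -0.65 to 0.19, adjusted p = 0.439) and -0.37 for MIR26B (95% interval -1.05 to 0.31, adjusted p = 0.435 in edgeR). For MIR26A1 it was -0.17 (95% interval -0.68 to 0.33) and for MIR26A2 -0.18 (95% interval -0.68 to 0.33). The A375 dabrafenib libraries lay below the DMSO mean in 3 of 3 cases for each member, and the groups overlapped. Of all tested precursors 25.1% passed (32 higher and 12 lower), and 0 of the 3 members; at an unadjusted p under 0.05 there was also none, and the DESeq2 Wald test called none.

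These values also depended on the filter and on the scaling. For the sum and MIR26B they were -0.59 and -0.77 with at least 1 CPM in 3 libraries, -0.58 and -0.75 with no filter and -0.39 and -0.56 with DESeq2's size factors, none called. The TMM factors of A375 in dabrafenib were 0.814, 0.693 and 0.822, against 1.044 to 1.187 in the other libraries. By total counts alone the dabrafenib libraries were below the DMSO libraries for each member, as for 38.9% of all tested precursors, against 17.7% under TMM. The values were then -0.68 for the sum (adjusted p = 0.0510 in edgeR) and -0.87 for MIR26B (adjusted p = 0.0437), while the calls over all precursors turned to 18 higher and 44 lower. The median of all precursors moved from 0.14 to -0.36, and with DESeq2's size factors to -0.06 with 23 calls in each direction. Measured from that median, the sum lay between -0.33 and -0.30 and MIR26B between -0.52 and -0.49 under 16 scalings. Without the 17 rRNA-like rows the values were -0.32 for the sum and -0.51 for MIR26B, neither called. Without A375 in DMSO replicate 3 the value of MIR26B was 0.00 under TMM, where the median of all precursors was 0.21. By total counts the other DMSO libraries stood at 440 and 435 CPM and the dabrafenib libraries at 316, 272 and 352 CPM. On that scaling the median of all precursors was -0.36 with all libraries. How many precursors separate in this split was not counted.

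In A375-BIR no member passed the threshold for the same treatment either. The log2 fold change was -0.07 for the miR-26a sum (95% interval -0.48 to 0.33, adjusted p = 0.848), -0.10 for MIR26A1 (95% interval -0.57 to 0.37) and -0.11 for MIR26A2 (95% interval -0.58 to 0.36). For MIR26B it was 0.38 (95% interval -0.21 to 0.97, adjusted p = 0.335 in edgeR), with 0 of 3 dabrafenib libraries below the DMSO mean. Of all tested precursors 20.6% passed (23 higher and 13 lower, 23 and 20 with DESeq2's size factors), and none of the miR-26 rows. The direction of these calls was not stable: they were 20 higher and 30 lower with A375 in DMSO replicate 1 as TMM reference, and 18 and 1 in the compared libraries alone. Without the 17 rRNA-like rows the values were -0.10 for the sum and 0.38 for MIR26B. Without A375-BIR in DMSO replicate 3 the value of the sum turned to 0.11 and that of MIR26B was 0.16. With at least 1 CPM in 3 libraries the sum was -0.33 and MIR26B 0.16, and with no filter -0.34 and 0.15, none called. In these libraries the fibroblast and smooth muscle marker MIR143 was higher in dabrafenib (log2 fold change 1.80, SE 0.408, adjusted p = 0.00661 in edgeR), as was the blood marker MIR150 (2.85, SE 0.835, adjusted p = 0.0281). MIR150 had only 47 counts over all 12 libraries and was the 1 blood marker of 4 that was tested. These 4 summed to 3 to 4 counts per A375-BIR library in DMSO and 7 to 17.5 in dabrafenib. The part of MIR143 and MIR150 in the miR-26 values was not tested.

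The dabrafenib response of the lines was not shown to differ for any member. The difference in log2 response, A375 over A375-BIR, was -0.16 for the miR-26a sum (95% interval -0.74 to 0.43, adjusted p = 0.882) and -0.75 for MIR26B (95% interval -1.65 to 0.15, adjusted p = 0.350 in edgeR). For MIR26A1 and MIR26A2 it was -0.07 (95% interval -0.76 to 0.62 for each). Of all tested precursors 3.43% passed (5 higher and 1 lower, 3 and 5 by total counts alone). These 6 calls became 0 without 4 rRNA-like rows found by gene name and 2 without the 17. For MIR26B 13.1% of tested precursors had a lower value. The interval of MIR26B spans from a response more than 1 log2 unit lower to one slightly higher in A375. Without A375 in DMSO replicate 3 the value of MIR26B was -0.38, and without A375-BIR in DMSO replicate 3 it was -0.58. Without A375-BIR in DMSO replicate 2 the signs of miR-26a turned (0.01 for the sum, 0.11 for MIR26A1 and 0.12 for MIR26A2). Of the 12 fits leaving out 1 library, 11 were below 0 for the sum, 10 for MIR26A1 and 9 for MIR26A2. By total counts alone the values were -0.53 for the sum and -1.24 for MIR26B, and without the 17 rRNA-like rows -0.22 and -0.89, none called.

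A ratio of both forms within a library does not depend on any scaling between libraries. The counts of miR-26a over MIR26B were 5.50, 5.28 and 3.27 in A375 in DMSO, 4.8, 5.07 and 5.08 in A375 in dabrafenib, 5.63, 3.27 and 10.4 in A375-BIR in DMSO, and 4.68, 4.24 and 3.63 in A375-BIR in dabrafenib. The highest ratio was that of A375-BIR in DMSO replicate 3, the library that stood apart by chi-square. There MIR26B made up 8.7% of the family (95% exact binomial interval 6.7% to 11.2%) against 15.1% to 23.4% in the other libraries. On the log2 scale MIR26B over miR-26a averaged -2.19 ± 0.42 in A375 in DMSO, -2.32 ± 0.05 in A375 in dabrafenib, -2.53 ± 0.84 in A375-BIR in DMSO and -2.06 ± 0.19 in A375-BIR in dabrafenib (SD, n = 3). The ratio differed neither by line (difference 0.04, exact permutation p = 0.945, adjusted over 2 tests 0.945) nor by treatment (0.17, exact permutation p = 0.595, adjusted 0.945) beyond the spread. The pooled difference by line joins unlike treatments. In dabrafenib all 3 A375 libraries (-2.26, -2.34 and -2.34) were below all 3 A375-BIR libraries (-2.23, -2.08 and -1.86). The nearest of them, replicate 1 of each line, had 15 and 22 counts of MIR26B. Their exact binomial 95% intervals for its share of the family overlapped (10.0% to 26.8% and 11.4% to 25.4%). How often other precursors separate in such a ratio was not counted. In DMSO the mean was higher in A375, and A375-BIR replicate 3 stood at -3.38. Leaving out A375-BIR in DMSO replicate 3 turned the differences to -0.17 and -0.04. The ratio counts reads, and unequal recovery of both sequences in library preparation was not tested.

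**Figure D4:**
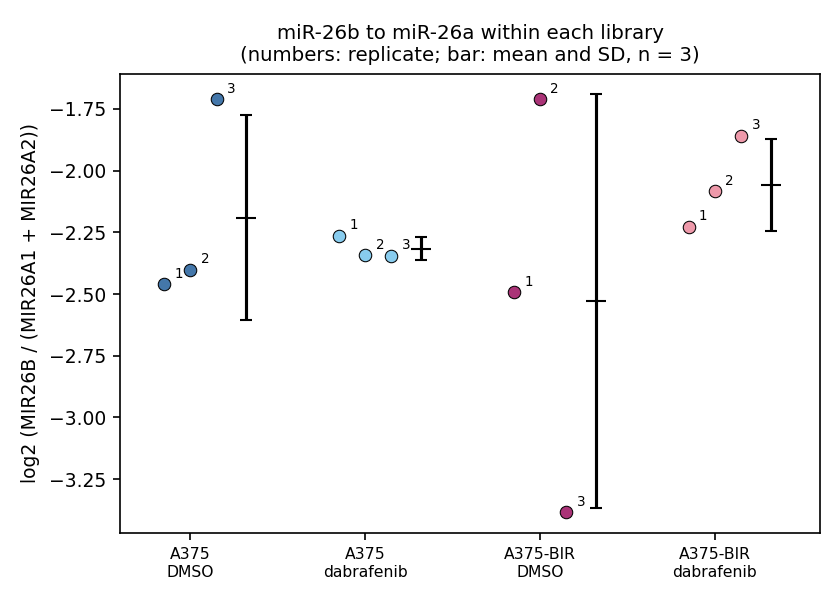
Log2 ratio of MIR26B to the sum of MIR26A1 and MIR26A2 within each library (y axis) by line and treatment (x axis), with the replicate number beside each point and the mean and SD of 3 libraries as a bar. The A375 libraries in dabrafenib span -2.34 to -2.26, and A375-BIR in DMSO spans -3.38 to -1.71.

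Over the 12 libraries the level of the miR-26a sum was most like that of MIR1248 (Pearson r of log2 CPM 0.85), MIR3929 (0.81) and MIR622 (0.80), and that of MIR26B most like MIR125B1 (0.55), MIR767 (0.51) and MIR30C1 (0.51). The sum and MIR26B, whose 5p arms share 1 seed, had r = 0.22. Within groups, after the group means were removed, r was 0.755, 0.622 and 0.573 for the first 3, 0.118, 0.031 and 0.586 for the 3 nearest to MIR26B, and -0.23 between the sum and MIR26B. The libraries share scaling, depth and the division into 4 groups, and r is given as a description.

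Other families housed in paralogous genes were mostly too sparse to compare. Of 11 such precursors 2 were tested, both from the COPZ coat protein genes. MIR148B (COPZ1) was lower in A375 over both treatments (log2 fold change -0.77, SE 0.273, adjusted p = 0.0255 in edgeR), and MIR152 (COPZ2) had -0.37 (SE 0.237, adjusted p = 0.193 in edgeR). In this comparison 60% of all tested precursors were called, so the call of MIR148B does not set it apart. Dabrafenib in A375 gave 0.10 for MIR148B and 0.35 for MIR152, neither called, where 25.1% of all tested precursors were called. The median of the list was -0.57 for the lines and 0.22 for dabrafenib in A375, against -0.11 and 0.14 over all tested precursors. MIR103A1, MIR103A2, MIR107, MIR33A, MIR33B, MIR218-1, MIR218-2, MIR128-1 and MIR128-2 had at most 83.5 counts over all 12 libraries together. Of 5 other miRNAs known to act on EZH2, 0 could be tested (MIR101-1, MIR101-2, MIR138-1, MIR138-2 and MIR214, with at most 85.03 counts in all), so among these EZH2 regulators only miR-26 was measured well enough for a test.

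Of 23 other miRNAs known to act on G1 cyclins, their kinases or E2F, 17 were tested. Over both treatments 7 were higher and 9 lower in A375, where 60% of all tested precursors were called, so the list moved in both directions. Its median log2 fold change was -0.50 against -0.11 over all tested precursors, and that median is the value of MIRLET7A3, 1 of 3 let-7a copies with nearly equal counts and values (-0.50, -0.51 and -0.50). The lowest were MIR15B (-2.10, SE 0.256), MIR424 (-1.83, SE 0.279) and MIRLET7C (-1.71, SE 0.112), and the highest MIR98 (1.50, SE 0.208), MIRLET7B (1.08, SE 0.108) and MIRLET7D (1.05, SE 0.133). The miR-26a sum, at -0.37, was small beside these. For dabrafenib in A375, 2 were higher (MIRLET7C 1.17, MIRLET7B 0.95), 1 lower (MIR15B -1.42) and 14 not called, with a median of 0.01 against 0.14 and 25.1% of all tested precursors called. MIR16-2 (0.66), MIR34A (-0.54) and MIRLET7I (-0.46) came next and were not called. The 5 precursors with the most counts were MIRLET7B (16.8% of all counts), MIRLET7I (12.6%), MIRLET7A1 (7.65%), MIRLET7A2 (7.65%) and MIRLET7A3 (7.61%). They belong to the same list.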

How the data were processed

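The authors trimmed the small RNA reads, removed contaminating sequences such as rRNA, and deposited RSEM 1.2.25 expected counts per miRNA gene (hg38), not normalised. Rows were named from GENCODE 44, and all 3 members were found. Rounded counts went into edgeR 4.0.16 (R 4.3.3). filterByExpr kept 175 precursors, TMM scaled the 12 libraries, and the quasi-likelihood test compared group means, with p-values adjusted by Benjamini-Hochberg over the 175 and a threshold of 0.05. For the miR-26a sum the fit was repeated with both copies replaced by their sum, and its p-values were adjusted over 174 rows. CPM levels used the factors of the deposited table, with no logarithm or prior count. Exact tests and likeness used log2 CPM with prior count 2 and the same factors. DESeq2 1.42.0 served as an alternative. Scripts were tested on simulated data. Named miRNAs were the members, the nearest in level and likeness, the extremes of the lists, same-seed rows and the most counted. The members and lists were chosen with earlier results of these data known. The deviations of libraries from their group means correlated between A375 and A375-BIR in DMSO for equal replicate numbers (0.11, 0.22 and 0.30) and in all 3 numbers for no other pair of groups, so the fit with the number as a block is reported beside the other; the labels name no shared day.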

Additional observations from a re-analysis of the deposited data

How the results depend on the processing

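Values are log2 fold changes in the order of the report. The copies MIR26A1 and MIR26A2 share their reads, so their values count once. Leaving out 1 library at a time, A375 over A375-BIR over both treatments ran from -0.54 to -0.28 for the miR-26a sum, -0.51 to -0.27 for MIR26A1, -0.52 to -0.29 for MIR26A2 and -0.54 to -0.24 for MIR26B. In DMSO the ranges were -0.46 to -0.11, -0.56 to -0.10, -0.58 to -0.12 and -0.35 to 0.25, and in dabrafenib -0.65 to -0.36, -0.56 to -0.33, -0.58 to -0.35 and -0.82 to -0.63. For dabrafenib in A375 they were -0.35 to -0.23, -0.23 to -0.11, -0.23 to -0.11 and -0.54 to 0.00, and in A375-BIR -0.24 to 0.11, -0.28 to 0.12, -0.30 to 0.10 and 0.16 to 0.61. For the difference in response they were -0.34 to 0.01, -0.34 to 0.11, -0.33 to 0.12 and -0.98 to -0.38. The ratio by line ran from -0.17 to 0.24 and by treatment from -0.04 to 0.38.

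Over both treatments DESeq2's size factors gave -0.30 for MIR26A1, -0.31 for MIR26A2 and -0.31 for the sum, and its Wald test -0.30, -0.31 and -0.31, none past the threshold. The replicate block gave -0.37 for the sum and -0.43 for MIR26A2, both still called, and -0.41 for MIR26A1, not called. For MIR26B total counts alone gave -0.59 and total counts without the 17 rRNA-like rows -0.52, both called, and TMM without these rows gave -0.45, not called.

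For MIR26B in DMSO the sign turned with at least 1 CPM in 3 libraries (-0.05), with no filter (-0.07) and without the 17 rRNA-like rows (-0.01). In dabrafenib more settings passed. At least 1 CPM in 3 libraries gave -0.69 for MIR26A2, -0.68 for the sum and -0.97 for MIR26B, and no filter gave -0.72 for the sum and -0.96 for MIR26B. Total counts gave -0.93 for MIR26A1, -0.94 for MIR26A2, -0.94 for the sum and -1.21 for MIR26B. The compared libraries alone gave -0.64, -0.65, -0.65 and -0.92. Without the 17 rRNA-like rows the values were -0.62, -0.62, -0.63 and -0.90, and by total counts -0.81, -0.82, -0.82 and -1.08. Dabrafenib in A375 passed for MIR26B by total counts (-0.87). In A375-BIR the sign of miR-26a turned by total counts without the 17 rows (0.06, 0.05 and 0.05 for MIR26A1, MIR26A2 and the sum).

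The choice of TMM reference library, an alternative added after seeing the data, moved calls. Over both treatments A375-BIR in dabrafenib replicate 1 as reference gave -0.29, -0.30 and -0.30 for MIR26A1, MIR26A2 and the sum, and A375 in dabrafenib replicate 2 gave -0.34, -0.35 and -0.35, none called. Between the lines in dabrafenib, A375-BIR in dabrafenib replicate 2 gave -0.56 for the sum and -0.83 for MIR26B, and replicate 3 -0.64, -0.65, -0.65 and -0.92 for MIR26A1, MIR26A2, the sum and MIR26B, all called. A375 in DMSO replicate 2 gave -0.57 for MIR26A1, -0.57 for MIR26A2 and -0.57 for the sum. A375 in dabrafenib replicate 1 gave -0.60 for MIR26A2, -0.60 for the sum and -0.88 for MIR26B, replicate 2 -0.79 for MIR26B, and replicate 3 -0.57 for the sum and -0.85 for MIR26B. With A375 in dabrafenib replicate 2 as reference, MIR26A1 in A375-BIR was 0.00.

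Leaving out 1 library at a time, the precursors called ran from 20 to 46 for dabrafenib in A375-BIR and from 3 to 6 for the difference in response. The 36 called for dabrafenib in A375-BIR were 19 in the compared libraries alone and 20 by total counts without the 17 rRNA-like rows. For the difference in response, 6 became 0 without 4 named rRNA-like rows, 2 without the 17, 2 by total counts without the 17, and 1 or 3 with A375 in DMSO replicate 2 or A375 in dabrafenib replicate 2 as reference.

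With 3 libraries per group, 1 line pair and 13 to 85 counts of MIR26B per library, small changes could be missed.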
